A study of Drosophila melanogaster with 12 samples.

Results

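The dpr, DIP and beat genes encode cell-surface and secreted proteins that neurons use to recognise each other during wiring. They were taken as every gene whose current symbol is dpr with a number or begins with DIP- or beat-, read through probe sets that name that gene alone. This gave 43 genes, of 11982 genes on the array with such a probe set: 20 dpr, 10 DIP and 13 beat genes, with 71 probe sets between them. One probe set per gene was kept, the one with the highest mean over the 12 arrays. The gene table lists 46 genes with such symbols; DIP-lambda, beat-Ib and dpr21 had no probe set of their own and were not analysed here.

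The proteins of all these families carry immunoglobulin domains. Dprs (defective proboscis extension response) on one cell bind DIPs (Dpr-interacting proteins) on another, in a network in which a DIP binds particular Dprs, and such pairs are known for matching synaptic partners in the fly optic lobe, the mushroom body and at the neuromuscular junction. Beaten path (Beat) proteins bind proteins of the Sidestep family, and the founding pair, Beat-Ia on motor axons and Side on their path, steers axons out of the nerve to their muscles. The study asked which brain transcripts respond to a toxic CAG repeat RNA.

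The 12 samples were brains of 3-day-old female Drosophila melanogaster, 4 per genotype, each pooled from about 20 brains freed of eyes, lamina and outer medulla and read on 1 Affymetrix array. CAG100 flies (elav-GAL4; UAS-DsRed-CAG100) carried 5 copies of a DsRed reporter with 100 CAG units in its 3′ untranslated region, and CAA/G105 flies (elav-GAL4; UAS-DsRed-CAA/G105) carried 2 copies with a repeat interrupted by CAA. CAG0 flies (elav-GAL4; UAS-DsRed-CAG0) carried 1 copy without a repeat. All 3 genotypes share the elav-GAL4 driver, which acts in neurons, and copy numbers were chosen to match reporter mRNA, so copy number differs along with the repeat and the 2 cannot be told apart. The 4 samples of a genotype are called independent replicates, and p-values measure the spread between them.

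Values are the authors' GCRMA signals in log2 units per probe set. GCRMA corrects each array for background by probe sequence and normalises the arrays together. Between arrays the correlation over all probe sets was 0.9957 to 0.9986 within a genotype and 0.9929 to 0.996 across genotypes. The neuronal gene elav read 13.69 ± 0.03 for CAG100, 13.73 ± 0.05 for CAA/G105 and 13.77 ± 0.08 for CAG0 (SD, n = 4 each). Among 7 measured genes of optic lobe neurons, 1 was called higher and 1 lower in CAG100 than in CAG0 and 1 lower in CAA/G105 than in CAG0, and their summed log2 signal was 69.81 to 71.21 for CAG100, 70.23 to 71.36 for CAA/G105 and 70.17 to 71.06 for CAG0. Of 8 haemocyte (blood cell) genes, 4 were lower in CAA/G105 than in CAG0 and 3 were higher in CAG100 than in CAA/G105, with a summed log2 signal per array of 89.43 to 92.05 for CAG100, 81.21 to 88.01 for CAA/G105 and 88.32 to 93.85 for CAG0. Of 7 glial genes, 1 was lower in CAG100 than in CAG0, 2 were higher in CAA/G105 than in CAG0, and 1 was higher and 2 lower in CAG100 than in CAA/G105, with sums of 94.93 to 95.53 for CAG100, 95.16 to 95.49 for CAA/G105 and 94.62 to 95.62 for CAG0. Of 5 muscle genes tested, 1 was lower in CAA/G105 than in CAG0 and 1 higher in CAG100 than in CAA/G105, and the sum over 6 muscle genes ranged widely, at 26.67 to 42.69 for CAG100, 26.99 to 55.16 for CAA/G105 and 31.15 to 43.18 for CAG0. Of 6 fat body genes, 1 was higher in CAG100 than in CAA/G105. Beside these counts, 7.86% of all tested probe sets were called higher and 10.4% lower in CAG100 than in CAG0. The shares were 5.49% and 7.72% in CAA/G105 against CAG0, and 10.4% and 10.5% in CAG100 against CAA/G105. Of 7 photoreceptor genes, limma called 0 in each comparison. Their summed log2 signal was 62.6 to 72.07 for CAG100, 58.5 to 70.18 for CAA/G105 and 65.35 to 71.71 for CAG0. Their median log2 difference was 0.01 in CAG100 and -0.45 in CAA/G105 against CAG0, and 0.5 in CAG100 against CAA/G105. Akh, which encodes adipokinetic hormone and is made in the corpora cardiaca beside the brain, had no signal on 3 arrays: 2.25 for CAG100 replicate 1, 2.43 for CAG100 replicate 3, and 2.06 for CAA/G105 replicate 3. All other arrays read 11.04 or more. The part of these differences in the results was not tested, and adjusted p-values without the 3 arrays that lack Akh signal are given where a call ended. In pooled tissue, fewer cells of a type and less RNA per cell cannot be told apart.

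Most of the wiring genes were expressed in the adult brain. A gene was taken as expressed where its probe set reached log2 4, the level also used as the filter for testing. By that measure 40 of the 43 genes were expressed on all 12 arrays, which is 93.0%, against 56.3% of all genes named on the array. The 40 comprised 19 of 20 dpr genes, 8 of 10 DIP genes and all 13 beat genes. No gene was expressed on some arrays and absent on others.

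The 3 genes below log2 4 stayed there on every array. Signal for dpr3 lay between 2.49 and 2.61, for DIP-epsilon between 2.37 and 2.50, and for DIP-iota between 2.08 and 2.11. The other probe sets of dpr3 and DIP-epsilon lay below log2 4 as well, whereas DIP-iota had no other probe set. These readings are at the bottom of the scale and give only an upper bound on the transcript.

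Signals of probe sets for different genes depend on the probes and were not ranked against each other. Within a gene the spread of the 12 arrays differed. Among the 40 expressed genes, the range from lowest to highest array ran from 0.09 for dpr7 to 1.58 for beat-Vc. The median standard deviation within genotypes was 0.116 for the 40 genes, beside 0.121 for all 8966 probe sets that were tested. Beat-Vc, beat-VII and DIP-beta varied more, with standard deviations within genotypes of 0.418, 0.314 and 0.333, which limits what could be detected for them.

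**Figure D1:**
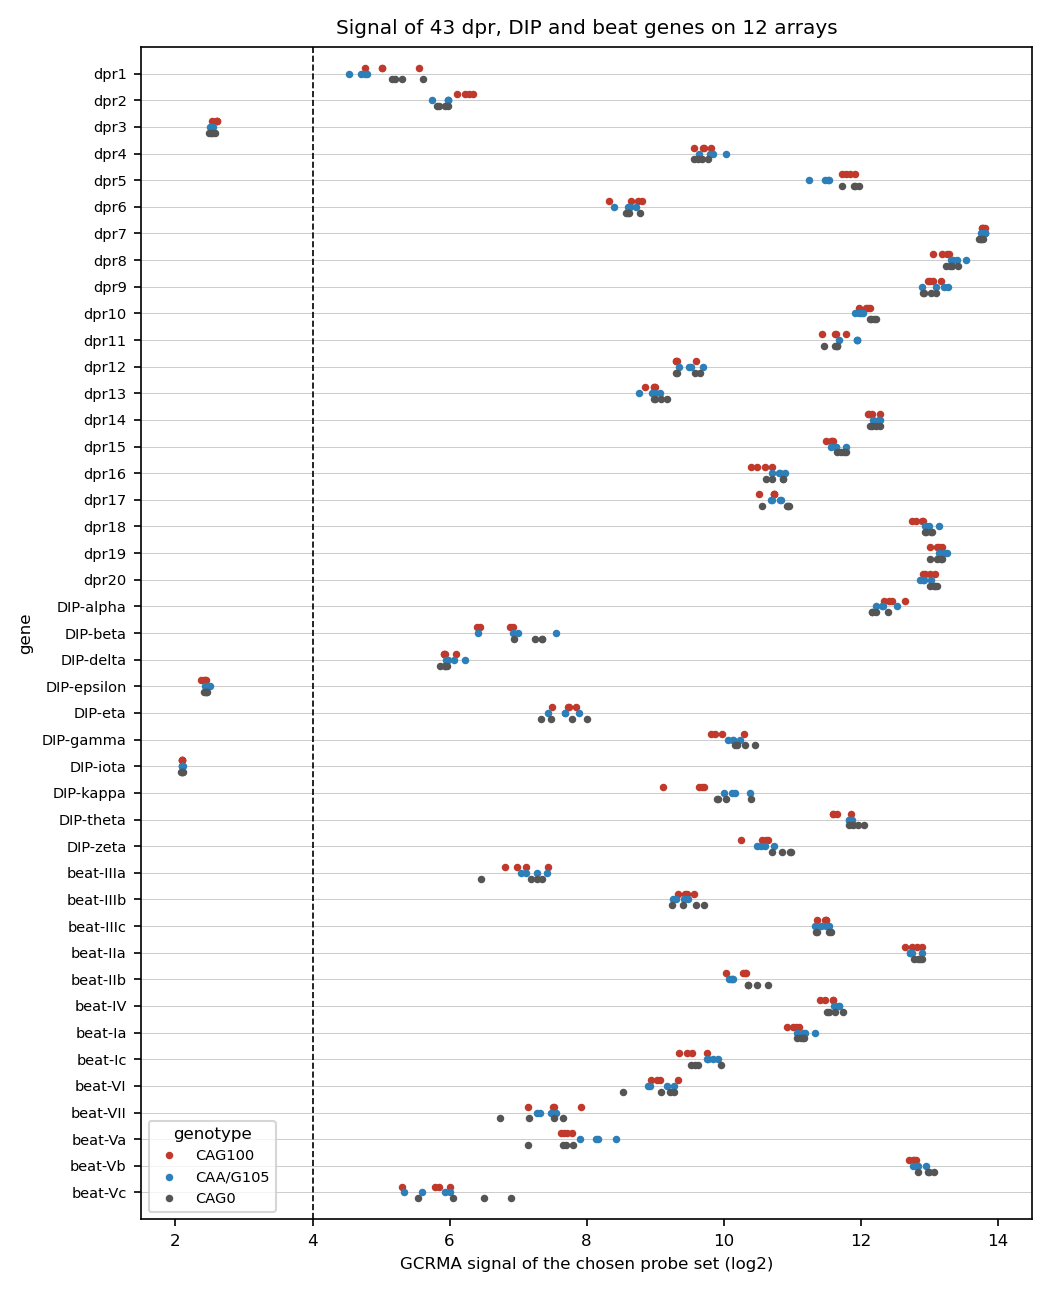
Signal of the chosen probe set of each of the 43 genes (horizontal axis, log2 GCRMA signal; 1 point per array; the dashed line marks log2 4), with CAG100 above CAA/G105 above CAG0 in each row. The 40 genes to the right of the line are so on all 12 arrays, and dpr3, DIP-epsilon and DIP-iota lie left of it on all 12.

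Called differences between genotypes were small, at 1.55-fold or less. Each comparison was tested with limma across the 8966 probe sets, and a gene is called where the p-value adjusted over all of them by the Benjamini-Hochberg method is under 0.05. In CAG100 against CAG0, 1 gene was called higher and 5 lower, 15% of the 40; over all probe sets 18.3% were called, 7.86% higher and 10.4% lower. In CAA/G105 against CAG0, 2 were called higher and 4 lower, again 15%, where 13.2% of all probe sets were called, 5.49% higher and 7.72% lower. In CAG100 against CAA/G105, 2 were called higher and 6 lower, 20.0%, where 20.8% of all were called, 10.4% higher and 10.5% lower. The shares of called wiring genes were near those of the whole array, so the counts are no result about these families.

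The median log2 difference of the 40 genes was -0.08 in CAG100 against CAG0, beside -0.03 for all tested probe sets. It was 0.02 in CAA/G105 against CAG0, beside -0.01, and -0.08 in CAG100 against CAA/G105, beside -0.02. The 20 calls fell on 15 genes, 37.5% of the 40, where 32.2% of all probe sets were called in at least 1 comparison. They ranged from 1.12-fold to 1.55-fold, with 3 of them at 1.5-fold or more. The first 2 comparisons share the CAG0 arrays and each other pair shares a genotype, so the calls of different comparisons are not independent. The remaining 25 expressed genes passed in no comparison, with log2 differences of -0.56 to 0.25 and adjusted p-values of 0.0618 or more.

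**Figure D2:**
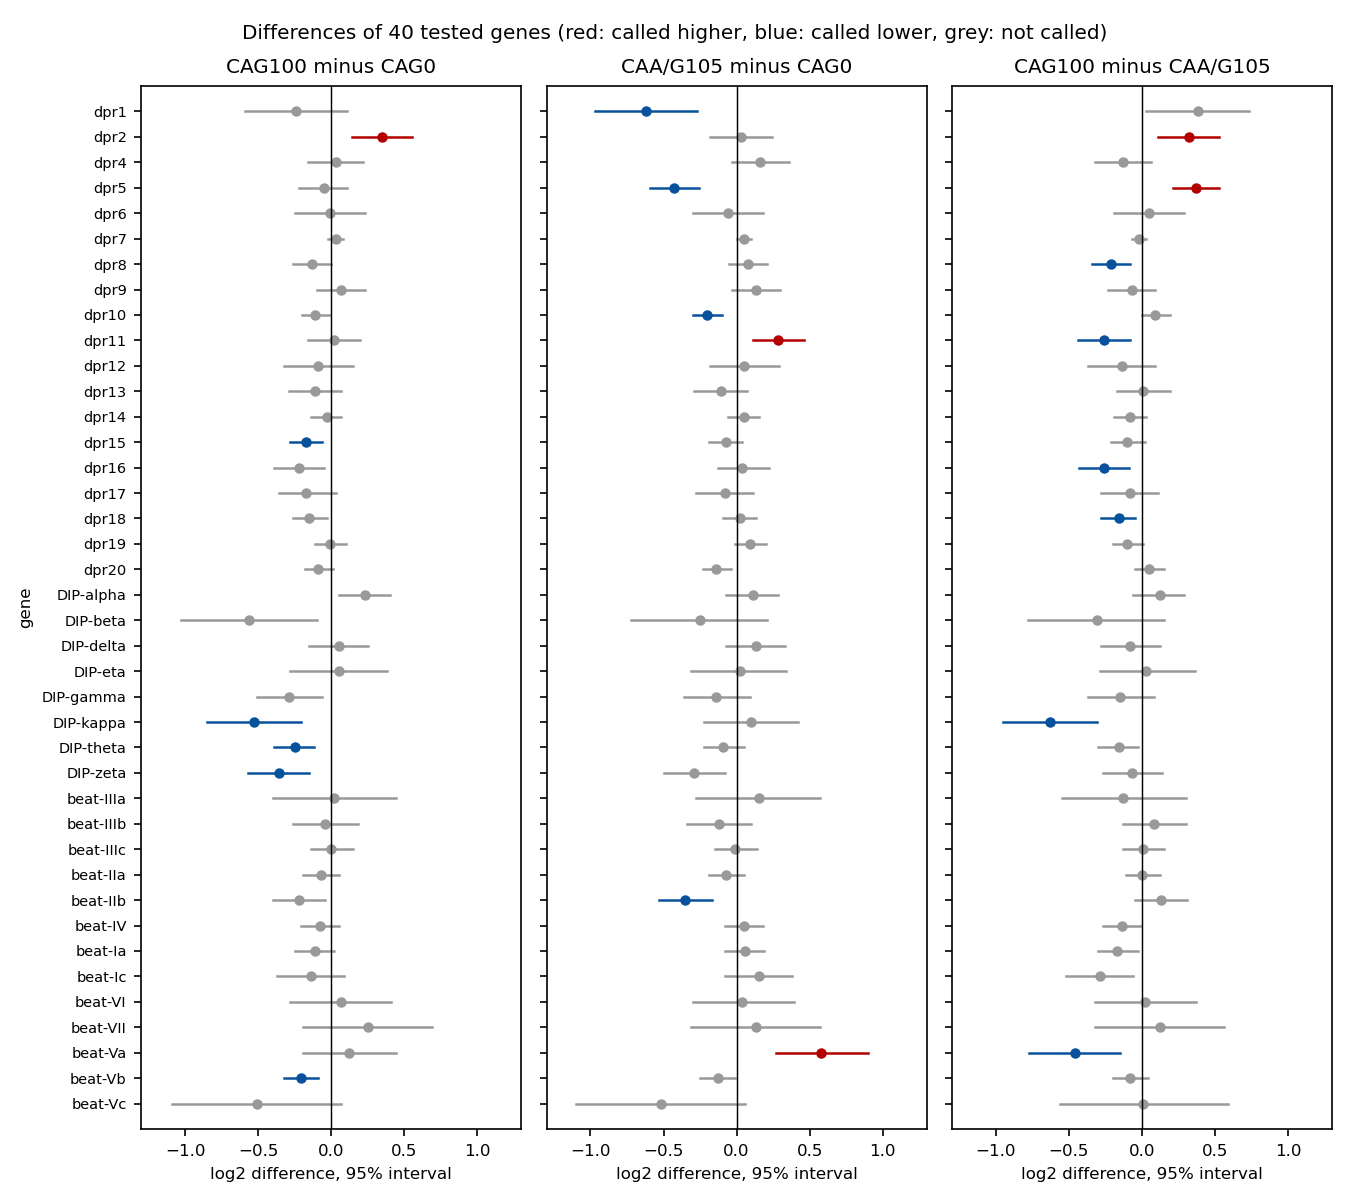
Log2 differences of the 40 tested genes (points) with 95% intervals from limma (lines), for CAG100 minus CAG0, CAA/G105 minus CAG0 and CAG100 minus CAA/G105. Called genes are red where higher and blue where lower in the genotype named first; genes not called in a comparison are grey.

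Of the 19 dpr genes tested, 9 were called in at least 1 comparison (47.4%, beside 32.2% of all probe sets). The lowest adjusted p belonged to dpr5, a Dpr gene that lies next to dpr4 on its chromosome. Its signal was 11.92, 11.79, 11.85 and 11.72 in CAG100, 11.54, 11.48, 11.53 and 11.25 in CAA/G105, and 11.97, 11.90, 11.72 and 11.91 in CAG0. Every CAA/G105 array was below every CAG0 array, a difference of -0.43 ± 0.07 (SE, 1.34-fold lower, adjusted p = 0.00232). The call held under all 22 alternative settings and array omissions at the 0.05 threshold, and at 0.01. With only 1 probe set for dpr5, the alternative that takes a gene's next probe set repeated the main fit. The CAG100 arrays were also all above the CAA/G105 arrays, and dpr5 was higher in CAG100 than in CAA/G105 by 0.37 ± 0.07 (1.29-fold, adjusted p = 0.00417). Under the same alternatives the call between the repeats ended only without the 3 arrays that lack Akh signal (adjusted p = 0.0714). The difference between CAG100 and CAG0 did not pass for dpr5 (-0.05, 95% interval -0.22 to 0.11), and the neighbouring dpr4 passed in no comparison.

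The gene dpr2 set CAG100 apart from both other genotypes. It read 6.29, 6.11, 6.34 and 6.23 in CAG100, against 5.98, 5.74, 5.98 and 5.98 in CAA/G105 and 5.94, 5.98, 5.82 and 5.84 in CAG0. All CAG100 arrays were above all others, by 0.35 ± 0.10 over CAG0 (1.27-fold, adjusted p = 0.0258) and 0.32 ± 0.10 over CAA/G105 (1.25-fold, adjusted p = 0.0329). A second probe set of dpr2 was also higher in CAG100 than in CAG0 (0.52 ± 0.16, adjusted p = 0.0414) but did not pass against CAA/G105 (0.24 ± 0.16, adjusted p = 0.315). The call against CAG0 ended without CAG0 replicate 4 (adjusted p = 0.0715), CAG100 replicate 3 (0.0741) or CAG100 replicate 4 (0.0552), without the 3 arrays lacking Akh signal (0.199) and with no filter (0.131). The call against CAA/G105 ended without CAA/G105 replicate 2 (adjusted p = 0.0972) or 3 (0.0525), or CAG100 replicate 1 (0.0591), 3 (0.0908) or 4 (0.0673). It also ended without the arrays lacking Akh signal (0.243), with no filter (0.15) or with quantile normalization (0.0945). A replicate block in the fit ended both dpr2 calls (adjusted p = 0.0525 against CAG0 and 0.0629 against CAA/G105).

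Lower signal in CAA/G105 than in CAG0 was also called for dpr10 and dpr1. Dpr10 is, with Dpr6, a partner of DIP-alpha. It read 11.97, 12.04, 12.00 and 11.91 in CAA/G105, against 12.15, 12.20, 12.14 and 12.23 in CAG0. The groups did not overlap, at -0.20 ± 0.05 (1.15-fold lower, adjusted p = 0.0112), and at the 0.05 threshold the call ended only when arrays were shifted to the same median (adjusted p = 0.0587). In CAG100 dpr10 read 12.14, 12.08, 11.97 and 12.11, lower than in CAG0 without passing (-0.11 ± 0.05, adjusted p = 0.129). The difference between the repeats did not pass for dpr10 either (0.09 ± 0.05, adjusted p = 0.16). The founding member dpr1, named for a defect in the proboscis response to salt, read 4.53, 4.79, 4.71 and 4.77 in CAA/G105, against 5.61, 5.16, 5.31 and 5.21 in CAG0. No array overlapped, at -0.62 ± 0.16 (1.54-fold lower, adjusted p = 0.0233). A second probe set of dpr1 gave no call (-0.06 ± 0.11, adjusted p = 0.786), so the probe sets disagree. The dpr1 call also ended without CAA/G105 replicate 1 (adjusted p = 0.0623) or 3 (0.0504), CAG0 replicate 1 (0.0673), or the filter (0.0703). With its chosen probe set, dpr1 in CAG100 passed neither against CAG0 (-0.24 ± 0.16, adjusted p = 0.338) nor against CAA/G105 (0.38 ± 0.16, adjusted p = 0.113).

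Dpr11 is, with Dpr15, Dpr16 and Dpr17, a partner of DIP-gamma. The gene read 11.78, 11.63, 11.44 and 11.64 in CAG100, 11.69, 11.95, 11.95 and 11.95 in CAA/G105, and 11.65, 11.66, 11.63 and 11.46 in CAG0, with replicate 1 of CAA/G105 only just above the CAG0 arrays. It was higher in CAA/G105 than in CAG0 by 0.28 ± 0.08 (1.22-fold, adjusted p = 0.0392). The CAG100 arrays overlapped those of CAA/G105 and were lower on average (-0.26 ± 0.08, 1.2-fold, adjusted p = 0.0389). The call against CAG0 ended without CAA/G105 replicates 2, 3 or 4 (adjusted p = 0.101, 0.101 and 0.0994), CAG0 replicates 1, 2 or 4 (0.0593, 0.0592 and 0.113), CAG100 replicates 2 or 4 (0.056 and 0.0542) or the arrays lacking Akh signal (0.0774), with no filter (0.0824) and without a variance trend (0.0514). The call between the repeats ended without CAA/G105 replicates 2, 3 or 4 (0.101, 0.102 and 0.0904) or CAG100 replicates 2, 3 or 4 (0.0786, 0.113 and 0.0726). It also ended without the arrays lacking Akh signal (0.169), with no filter (0.0788), without a variance trend (0.0515) and with only the arrays of the genotypes compared (0.0611). The replicate block ended both dpr11 calls (adjusted p = 0.0782 against CAG0 and 0.0747 between the repeats).

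Its relatives dpr15 and dpr16 were lower in CAG100, each against one genotype. The dpr15 signal was 11.58, 11.50, 11.57 and 11.60 in CAG100, against 11.71, 11.79, 11.66 and 11.76 in CAG0. The groups were separate but close, at -0.17 ± 0.05 (1.12-fold lower, adjusted p = 0.0423). The dpr16 signal was 10.70, 10.48, 10.40 and 10.60 in CAG100, against 10.70, 10.82, 10.90 and 10.81 in CAA/G105. The highest CAG100 array came within rounding of the lowest CAA/G105 array, at -0.26 ± 0.08 (1.2-fold lower, adjusted p = 0.032). The dpr15 call ended without CAG0 replicates 1, 2 or 4 (adjusted p = 0.0651, 0.109 and 0.109), CAG100 replicates 1, 2, 3 or 4 (0.0556, 0.117, 0.0842 and 0.063), CAA/G105 replicates 2 or 4 (0.0529 and 0.0562) or the arrays lacking Akh signal (0.0918), after a median shift or quantile normalization (0.0879 and 0.0608), with no filter (0.0659) and without a variance trend (0.0522). The dpr16 call ended without CAA/G105 replicates 2, 3 or 4 (0.0728, 0.0943 and 0.0635), CAG100 replicates 2 or 3 (0.0867 and 0.0962) or the arrays lacking Akh signal (0.151), after a median shift or quantile normalization (0.0529 and 0.0542) and with no filter (0.0566). The replicate block also ended both calls (adjusted p = 0.0785 for dpr15 and 0.0556 for dpr16). Against CAG0, dpr16 read -0.22 ± 0.08 in CAG100 without passing (adjusted p = 0.0753), and dpr17 passed in no comparison.

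The direct comparison of the repeats also called dpr8 and dpr18, both encoding further Dprs. The dpr8 signal was 13.29, 13.05, 13.19 and 13.26 in CAG100, against 13.32, 13.35, 13.53 and 13.41 in CAA/G105. All CAG100 arrays were the lower ones, at -0.21 ± 0.06 (1.15-fold, adjusted p = 0.0282), and a second probe set gave the same size without passing (-0.20 ± 0.07, adjusted p = 0.0641). The dpr18 signal was 12.89, 12.80, 12.75 and 12.91 in CAG100, against 12.94, 13.14, 12.95 and 12.99 in CAA/G105. The gap between the groups was narrow, at -0.16 ± 0.05 (1.12-fold lower, adjusted p = 0.0402). The dpr8 call ended without CAA/G105 replicates 3 or 4 (0.0845 and 0.0578), CAG100 replicates 2 or 3 (0.0795 and 0.0654), the arrays lacking Akh signal (adjusted p = 0.0993) or the filter (0.0655). The dpr18 call ended without CAA/G105 replicates 2, 3 or 4 (0.104, 0.0507 and 0.0658), CAG100 replicates 2 or 3 (0.101 and 0.116) or CAG0 replicate 2 (0.051). It also ended without the arrays lacking Akh signal (adjusted p = 0.168), with arrays shifted to the same median (0.069) and with no filter (0.0823). The same held with no variance trend (0.0669), only the arrays of the genotypes compared (0.0674) and the replicate block (0.0641).

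Among the 8 DIP genes tested, 3 were lower in CAG100 than in CAG0 (37.5%, beside 10.4% of all probe sets lower). In CAA/G105 against CAG0 limma called 0 of them, and DIP-zeta alone had an unadjusted p under 0.05 there (adjusted p = 0.066). DIP-kappa showed the largest fold among the 20 calls of dpr, DIP and beat genes. It read 9.64, 9.69, 9.12 and 9.72 in CAG100, against 10.01, 10.39, 10.17 and 10.12 in CAA/G105 and 9.91, 9.92, 10.40 and 10.04 in CAG0. Every CAG100 array was below all 8 others. The gene was lower than in CAA/G105 (-0.63 ± 0.15, 1.55-fold, adjusted p = 0.00953) and lower than in CAG0 (-0.53 ± 0.15, 1.44-fold, adjusted p = 0.027). CAG100 replicate 3 lay well below its own group. At the 0.05 threshold the call against CAA/G105 ended only without the 3 arrays lacking Akh signal (adjusted p = 0.103). The call against CAG0 ended without CAG100 replicate 3 (adjusted p = 0.063), CAG0 replicate 3 (0.0564) or 4 (0.0589) or the arrays lacking Akh signal (0.167). It also ended after a median shift or quantile normalization (0.0513 and 0.0563) and with no filter (0.0624). The same held with only the arrays of the genotypes compared (0.0543) and with the replicate block (0.0559).

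DIP-theta kept its call under the 22 alternatives at the 0.05 threshold, but not at 0.01. It has only 1 probe set, so the alternative that takes the next probe set repeated the main fit. It read 11.86, 11.65, 11.60 and 11.60 in CAG100, 11.87, 11.84, 11.83 and 11.83 in CAA/G105, and 12.05, 11.96, 11.83 and 11.89 in CAG0. CAG100 replicate 1 overlapped the lowest CAG0 array and the other CAG100 arrays lay below all of them, a difference of -0.25 ± 0.06 (1.19-fold lower, adjusted p = 0.0151). The difference between the repeats did not pass (-0.16 ± 0.06, adjusted p = 0.0831). Its close neighbour on the chromosome, DIP-eta, with 1 protein-coding gene between them, passed in no comparison.

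DIP-zeta read 10.62, 10.56, 10.26 and 10.64 in CAG100, 10.48, 10.74, 10.54 and 10.60 in CAA/G105, and 10.70, 10.85, 10.99 and 10.97 in CAG0. All CAG100 arrays were below all CAG0 arrays, at -0.36 ± 0.10 (1.28-fold, adjusted p = 0.0221). CAA/G105 gave -0.29 ± 0.10 against CAG0 without passing (adjusted p = 0.066), and the repeats were not told apart (-0.07, 95% interval -0.27 to 0.14). The DIP-zeta call ended without CAG0 replicate 4 (adjusted p = 0.068), CAG100 replicate 3 (0.055) or the arrays lacking Akh signal (0.119), and with arrays shifted to the same median (0.0513). DIP-beta had a larger difference that missed the threshold, at 6.92, 6.44, 6.40 and 6.88 in CAG100, against 7.35, 7.35, 7.25 and 6.94 in CAG0 (-0.56 ± 0.21, adjusted p = 0.0901). A second DIP-beta probe set pointed the other way (0.17 ± 0.18, adjusted p = 0.56).

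Of the 13 beat genes, 3 were called in at least 1 comparison (23.1%, beside 32.2% of all probe sets). Beat-IIb and Beat-IIa bind Side-IV. The beat-IIb signal was 10.33, 10.31, 10.28 and 10.03 in CAG100, 10.14, 10.08, 10.12 and 10.10 in CAA/G105, and 10.65, 10.49, 10.35 and 10.35 in CAG0. The CAA/G105 arrays were tightly grouped and below every CAG0 array, at -0.35 ± 0.08 (1.27-fold lower, adjusted p = 0.0145), and at the 0.05 threshold the call ended only without the arrays lacking Akh signal (adjusted p = 0.0551). The CAG100 arrays were also all below CAG0, without passing (-0.22 ± 0.08, adjusted p = 0.0849). Its paralogue beat-IIa passed in no comparison (-0.07 ± 0.05 in each repeat genotype against CAG0).

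Beat-Va, Beat-Vb and Beat-Vc bind Side-VI, and their genes lie near each other. Each was read by a probe set of its own. The beat-Va signal was 7.72, 7.67, 7.79 and 7.62 in CAG100, 7.91, 8.43, 8.17 and 8.14 in CAA/G105, and 7.66, 7.80, 7.70 and 7.15 in CAG0. All CAA/G105 arrays were above all CAG0 arrays, by 0.58 ± 0.14 (1.5-fold, adjusted p = 0.0181). All CAG100 arrays were below all CAA/G105 arrays (-0.46 ± 0.14, adjusted p = 0.0398). By contrast beat-Vb read 12.78, 12.70, 12.81 and 12.76 in CAG100, against 12.98, 13.07, 12.84 and 12.99 in CAG0, lower on every array, at -0.21 ± 0.05 (1.15-fold, adjusted p = 0.021). CAA/G105 gave -0.13 ± 0.05 for beat-Vb against CAG0 without passing (adjusted p = 0.155). The repeats were not told apart for it (-0.08, 95% interval -0.2 to 0.04). The third gene, beat-Vc, was called in neither repeat genotype and had wide intervals, at -0.51 ± 0.27 in CAG100 (95% interval -1.09 to 0.07) and -0.52 ± 0.27 in CAA/G105 (95% interval -1.1 to 0.06) against CAG0.

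The beat-Va call against CAG0 ended without CAA/G105 replicate 2 (adjusted p = 0.0571), without the arrays lacking Akh signal (0.0793), with no filter (0.0503) and with only the arrays of the genotypes compared (0.0543). The one between the repeats ended without CAA/G105 replicates 2, 3 or 4 (0.118, 0.0838 and 0.069), CAG100 replicates 1, 2, 3 or 4 (0.0572, 0.0869, 0.0638 and 0.0932), the arrays lacking Akh signal (adjusted p = 0.17) or the filter (0.0939). The beat-Vb call ended without CAG0 replicates 2 or 4 (0.0626 and 0.0577) or CAG100 replicate 2 (adjusted p = 0.0665), and with the replicate block (0.0515).

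**Figure D3:**
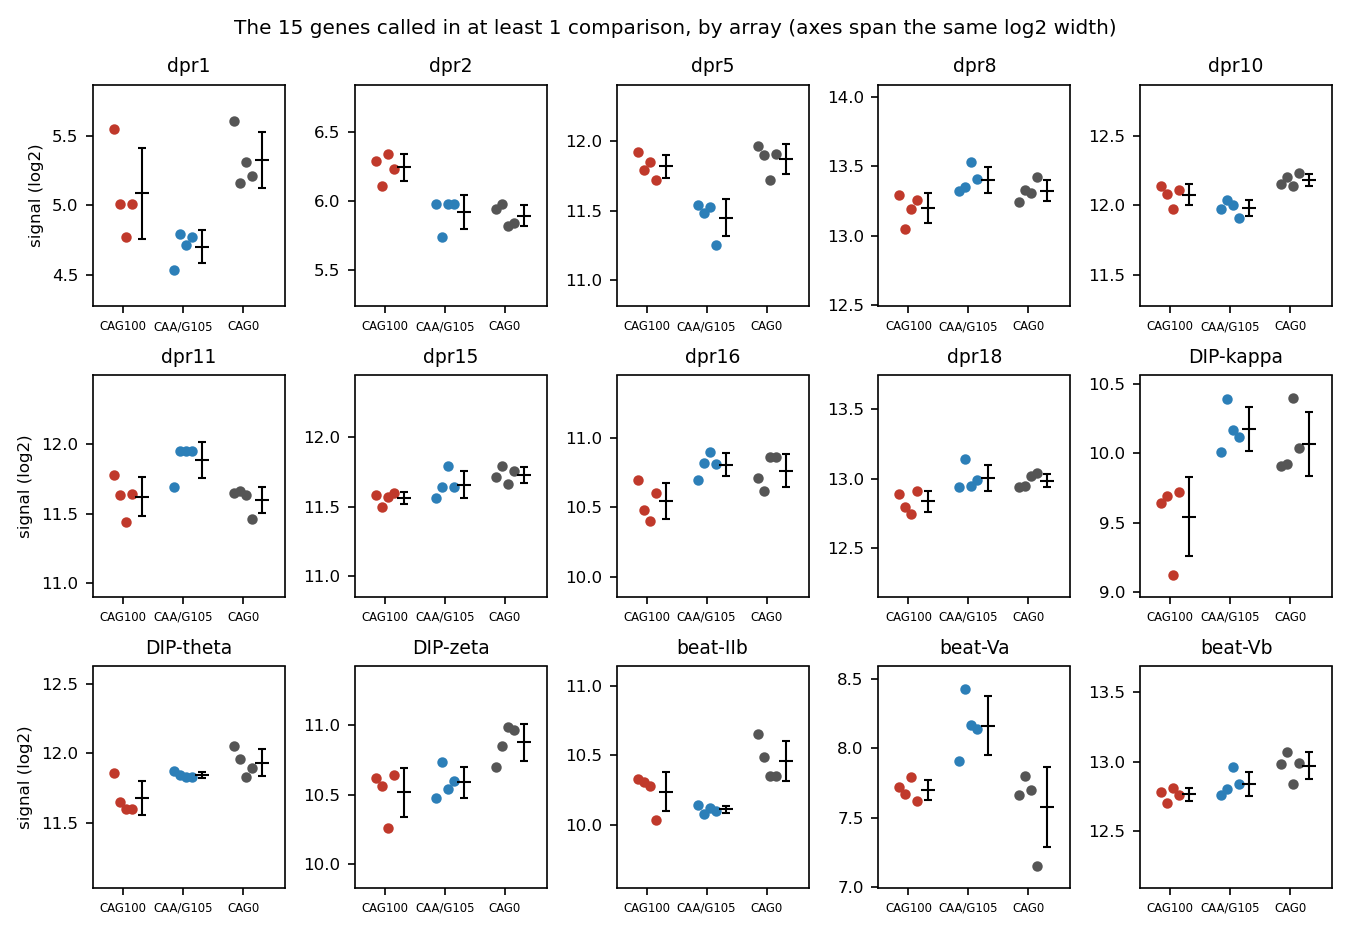
Signal (log2) of the 15 called genes on each array, 1 point per array, with the mean and SD of the 4 arrays in black beside them, for CAG100, CAA/G105 and CAG0 from left to right. Every panel spans the same log2 width; on average dpr5 and beat-IIb are lowest in CAA/G105, DIP-kappa is lowest in CAG100 and dpr2 is highest in CAG100.

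For 7 of the 43 genes more than 1 probe set passed the filter, and some of these disagreed. The calls differed between the probe sets of dpr1, dpr2 (CAG100 against CAA/G105), dpr8 and beat-IIIc; those of dpr2 and dpr8 pointed the same way. The chosen beat-IIIc probe set read 11.46 ± 0.07 for CAG100, 11.45 ± 0.09 for CAA/G105 and 11.45 ± 0.12 for CAG0. The other beat-IIIc probe set read 9.61, 9.46, 9.77 and 9.69 in CAG100, against 9.94, 9.93, 10.07 and 10.09 in CAA/G105, a difference of -0.37 ± 0.08 (1.3-fold lower, adjusted p = 0.00764). Probe sets of 1 gene can read different transcript ends or isoforms, and which transcript each reads was not examined. The probe sets of dpr12 passed in no comparison, and those of beat-VII and DIP-beta pointed in opposite directions in CAG100 against CAG0 without passing. A further 23 probe sets of the 43 genes were below the filter, for instance in dpr4, where 1 probe set read at least 9.56 and the other at most 2.06 on every array.

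**Figure D4:**
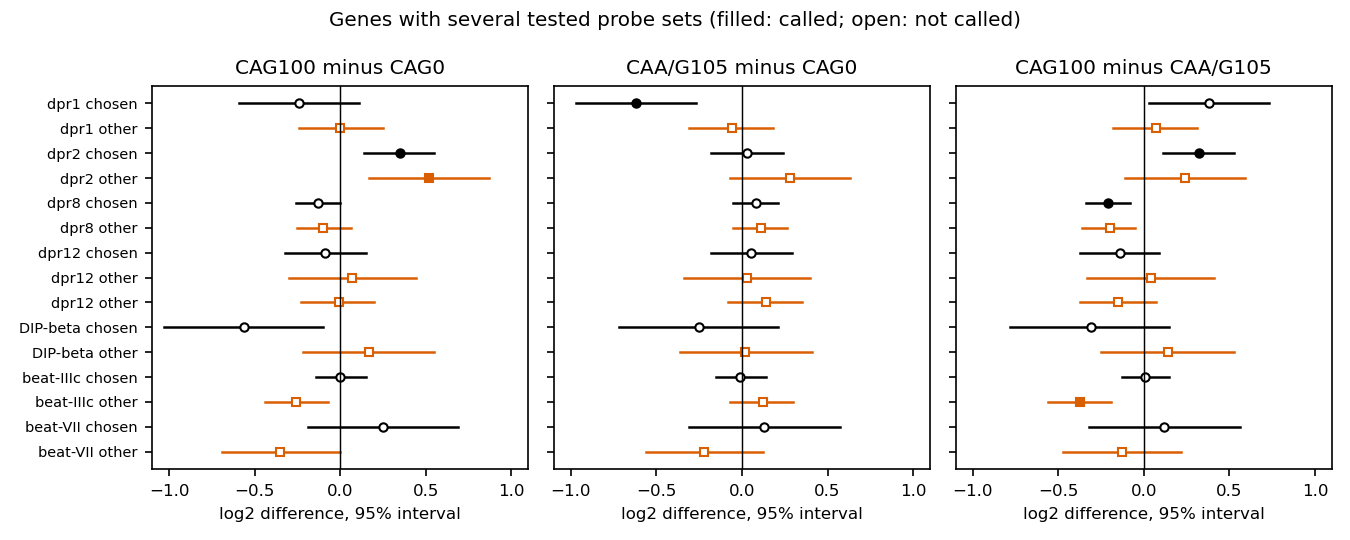
Log2 differences with 95% intervals for the 7 genes with several tested probe sets; black circles are the chosen probe sets, orange squares the others, filled where called. The beat-IIIc probe sets separate in CAG100 minus CAA/G105, and the dpr1 probe sets in CAA/G105 minus CAG0.

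For pairs known to bind, both genes are set side by side. DIP-alpha read 12.46 ± 0.13 for CAG100, 12.35 ± 0.13 for CAA/G105 and 12.24 ± 0.11 for CAG0 and passed in no comparison, nor did its partner gene dpr6, whereas its other partner gene dpr10 was lower in CAA/G105 than in CAG0. DIP-gamma missed the threshold in CAG100 against CAG0 (-0.29 ± 0.10, adjusted p = 0.0773) and in both other comparisons. Of its partner genes in CAG100 against CAG0, dpr15 was lower (-0.17 ± 0.05, adjusted p = 0.0423), while dpr16 (-0.22 ± 0.08, adjusted p = 0.0753), dpr17 (-0.17 ± 0.09, adjusted p = 0.228) and dpr11 (0.02 ± 0.08, adjusted p = 0.887) were not called; dpr11 was higher in CAA/G105 than in CAG0. DIP-delta and its mushroom-body partner gene dpr12 both passed in no comparison, with all differences of their chosen probe sets between -0.14 and 0.13. A second DIP-delta probe set reached log2 4 on only 2 arrays and was not tested. It read 3.99, 4.17, 4.13 and 3.82 in CAA/G105, above every array of the other genotypes. Those read 3.5, 3.33, 2.97 and 3.2 in CAG100 and 3.46, 3.74, 3.59 and 3.27 in CAG0. These values lie near the filter level. Of the Beat and Side pairs, beat-IIb was lower in CAA/G105 while side-IV missed the threshold in the same direction (-0.29 ± 0.12, adjusted p = 0.137). Beat-Va was higher in CAA/G105 while side-VI was not called (-0.18 ± 0.13, adjusted p = 0.448). In CAG100 against CAG0, beat-Vb was lower while side-VI was not called (-0.15 ± 0.13, adjusted p = 0.482). The founding pair, beat-Ia and side, passed in no comparison. In CAG100 against CAG0 the differences were -0.11 ± 0.06 for beat-Ia and -0.12 ± 0.15 for side.

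The Sidestep family, which holds the known Beat partners, included calls in CAG100. All 8 side genes had a probe set, 6 were tested, and 2 were higher in CAG100 than in CAG0, where 7.86% of all probe sets were higher; side-III and side-V were below the filter. The gene side-II, whose product binds Beat-VI, read 9.04, 8.85, 8.45 and 8.11 in CAG100, against 7.80, 7.98, 8.07 and 7.69 in CAG0. The groups did not overlap, at 0.73 ± 0.17 (1.66-fold higher, adjusted p = 0.0116), and at the 0.05 threshold the call ended only without the arrays lacking Akh signal (adjusted p = 0.0839). Its partner gene beat-VI read 9.09 ± 0.17 in CAG100 and 9.02 ± 0.34 in CAG0, with no call (0.07 ± 0.16, adjusted p = 0.818). The gene side-VII read 9.94, 9.64, 9.74 and 10 in CAG100, against 9.26, 9.49, 9.67 and 9.46 in CAA/G105 and 9.32, 9.41, 9.32 and 9.36 in CAG0. It was higher in CAG100 than in CAG0 by 0.48 ± 0.10 (1.39-fold, adjusted p = 0.00537) under all 21 alternatives run for it at the 0.05 threshold, and higher than in CAA/G105 by 0.36 ± 0.10 (adjusted p = 0.0212). The call between the repeats, where the arrays overlap, ended without CAA/G105 replicate 1 (0.0531), CAG100 replicate 4 (0.065) or the arrays lacking Akh signal (adjusted p = 0.0633).

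Other recognition genes were read from lists of the same kind. Of 7 DIP and Dpr relatives and secreted interactors, 1 was higher in CAG100 than in CAG0, beside 7.86% of all probe sets. It was fipi, a courtship-song gene (0.34 ± 0.08, adjusted p = 0.0123, and 0.146 without the arrays lacking Akh signal). Of 15 further immunoglobulin genes, 1 was higher and 1 lower in CAG100 than in CAG0, beside 7.86% and 10.4% of all probe sets. In CAG100 against CAA/G105, 1 was higher and 2 were lower, beside 10.4% and 10.5%. In CAA/G105 against CAG0, 1 was higher and 1 lower, beside 5.49% and 7.72%. The lower one was turtle, tutl (-0.32 ± 0.09, adjusted p = 0.0333). The tutl call ended without CAA/G105 replicates 1, 2 or 4 (0.0854, 0.0645 and 0.0666), CAG0 replicates 1 or 2 (0.0917 and 0.1), the filter (adjusted p = 0.0781) or with arrays shifted to the same median (0.0533). Of 12 leucine-rich repeat and teneurin genes, 5 were lower in CAG100 than in CAA/G105, where 10.5% of all probe sets were lower, led by the Toll receptor gene Tl (-0.35 ± 0.08, adjusted p = 0.00566). Among 8 receptor phosphatase and cadherin genes, 1 was lower in CAG100 than in CAG0, the receptor tyrosine phosphatase gene Ptp4E (-0.33 ± 0.07, adjusted p = 0.00627). In CAG100 against CAA/G105, 1 was lower. Over all probe sets 10.4% and 10.5% were lower in these 2 comparisons. Among 8 genes for guidance cues and their receptors, 1 was called, the semaphorin gene Sema1a, lower in CAG100 than in CAA/G105 (-0.33 ± 0.07, adjusted p = 0.00377). There, 10.5% of all probe sets were lower. The calls for Tl, Ptp4E and Sema1a held under all 21 alternatives run for them at the 0.05 threshold.

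The number of wiring genes called varied with the settings. Without the 3 arrays lacking Akh signal, 2 genes were called in CAG100 against CAG0, 3 in CAA/G105 against CAG0 and 0 in CAG100 against CAA/G105 (limma; 9 of 40 had an unadjusted p under 0.05). With array weights the counts were 12, 8 and 11. Of the 20 calls, those for dpr5 in CAA/G105 against CAG0 and DIP-theta in CAG100 against CAG0 held under all 22 alternatives at the 0.05 threshold. For both genes the next-probe-set alternative repeated the main fit. None of the 20 calls changed direction under any alternative, but for the 18 whose arrays do not overlap no array omission could have changed it. At 0.01, 3 calls were left: dpr5 in CAA/G105 against CAG0 and in CAG100 against CAA/G105, and DIP-kappa in CAG100 against CAA/G105. Without CAG0 replicate 4 only 1 gene was called in CAG100 against CAG0, and without CAG100 replicate 3 there were 2. In CAG100 against CAA/G105 the count was 2 without CAA/G105 replicate 3 or CAG100 replicate 3, and 3 without CAA/G105 replicate 2, CAA/G105 replicate 4 or CAG100 replicate 2.

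**Figure D5:**
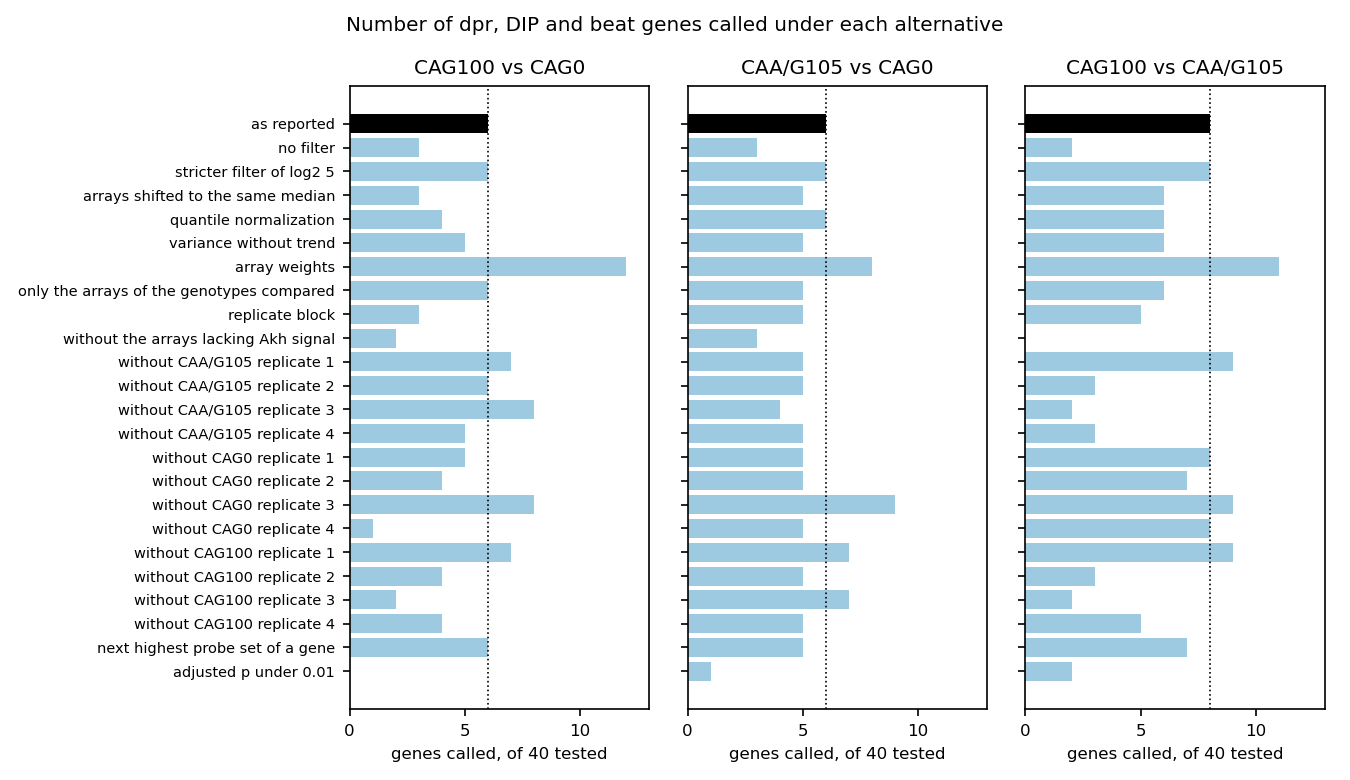
Number of the 40 tested genes called (bars, from 0) under each alternative setting, array omission or the stricter threshold of 0.01, for the 3 comparisons; the black bar and dotted line give the count as reported. Counts span 0 to 12 in CAG100 against CAG0, 1 to 9 in CAA/G105 against CAG0 and 0 to 11 in CAG100 against CAA/G105.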

How the data were processed

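RNA of 12 brain samples was amplified, labelled with biotin and hybridised to 1 single-colour Affymetrix array each, per the labels. The values the authors deposited are log2 signals of probe sets, made with GCRMA and Partek per the submitters' processing notes, with versions and settings not given in the sources used here, and were used as deposited. Probe sets were named through the array's annotation, updated by gene ID for 13544 of 13647 single-gene probe sets; the table has 18952 probe sets, 183 of them controls. Probe sets reaching log2 4 on at least 4 arrays were tested, 8966 in all.

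One fit of 3 genotype means over 12 arrays was made with limma 3.58.1 in R 4.3.3, with a variance trend and Benjamini-Hochberg adjustment over all 8966 probe sets, called at 0.05, and was tested on simulated data. The number of arrays limits the precision. Same-numbered arrays were not treated as pairs. Members and lists were chosen with earlier results of these data known. All members are named; of other lists, every called side gene and the largest call of each. Alternatives covered filter, scaling, variance model, weights, arrays fitted, replicate block, probe set, threshold and each array left out. Which genes neighbour each other was taken from the gene order of the RefSeq gene table (assembly Release 6 plus ISO1 MT); no sequences were used and no coordinates are given here.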

Additional observations from a re-analysis of the deposited data

Results flagged for a closer look

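In 12 of 120 groups of 4 arrays, 1 array stood apart from the other 3 beyond Dixon's critical value at 95% for 4 samples; chance gives about 6.0. In CAG100, DIP-kappa read 9.12 on replicate 3 (others 9.64 to 9.72), beat-IIb 10.03 on replicate 4 (others 10.28 to 10.33) and dpr13 8.85 on replicate 4 (others 8.99 to 9.0). On CAG100 replicate 1, dpr12 read 9.59 (others 9.30 to 9.32) and DIP-delta 6.09 (others 5.92 to 5.94). On CAG100 replicate 2, dpr17 read 10.51 (others 10.73 to 10.74) and beat-IIIc 11.36 (others 11.48 to 11.50). In CAA/G105, dpr2 read 5.74 on replicate 2 (others 5.98), dpr11 read 11.69 on replicate 1 (others 11.95) and dpr14 read 12.18 on replicate 4 (others 12.27 to 12.28). In CAG0, dpr11 read 11.46 on replicate 4 (others 11.63 to 11.66) and dpr17 read 10.56 on replicate 3 (others 10.92 to 10.96). The arrays concerned are spread over all 3 genotypes.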

How the results depend on the processing

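Counts of called genes varied with the settings. No call of 20 reversed, but many alternatives could not have reversed one. The arrays of 18 calls do not overlap, so leaving arrays out cannot change their direction. Filter, variance trend and threshold leave the difference itself unchanged. Of the 20 calls, 2 held under all 22 alternatives at the 0.05 threshold. For the genes of those 2 calls the next-probe-set alternative repeated the main fit. At 0.01, 3 of the 20 were left, and only dpr5 in CAA/G105 against CAG0 held under both. In CAG100 against CAG0 (6 as reported) the count was 3 with no filter, 3 with arrays shifted to the same median, 3 with the replicate block, 12 with array weights, 2 without the arrays lacking Akh signal and 0 at an adjusted p under 0.01 in limma, where 13 of 40 had an unadjusted p under 0.05; leaving out 1 array gave 1 to 8. In CAA/G105 against CAG0 (6) it was 3 with no filter, 3 without the arrays lacking Akh signal, 1 at 0.01, and 5 with the replicate block. In CAG100 against CAA/G105 (8) it was 2 with no filter, 5 with the replicate block, 0 without the arrays lacking Akh signal, where 9 of 40 had an unadjusted p under 0.05, and 2 at 0.01; leaving out 1 array gave 2 to 9. Apart from the stricter threshold, why the counts changed was not tested. Deviations of same-numbered arrays from their genotype means correlated at r = -0.259 to 0.39. Arrays of different numbers were not compared in this way, so whether the numbers pair the arrays was not settled. The replicate block ended 9 of the 20 calls. Genes expressed throughout were 40 at log2 3, 39 at log2 5, 36 at log2 6 and 32 with the next probe set of a gene. Over all probe sets, leaving out the arrays that lack Akh signal gave 948 calls in CAG100 against CAG0 and 924 in CAG100 against CAA/G105, in place of 1639 and 1869; at 0.01 there were 797 and 979, and 642 in CAA/G105 against CAG0 in place of 1184. Shifting arrays to the same median moved the median difference of all probe sets in CAG100 against CAG0 to 0.00, and made 877 of them higher and 751 lower there, against 705 and 934 as deposited, and in CAA/G105 against CAG0 603 and 586, against 492 and 692.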
